A study of Mus musculus with 10 samples.

Results

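The genes described here are the glucocorticoid receptor, the mineralocorticoid receptor and 8 genes that glucocorticoid hormones switch on, measured in mouse brain. They were chosen by symbol from the gene table: Nr3c1, Nr3c2, Fkbp5, Tsc22d3, Sgk1, Zbtb16, Klf9, Ddit4, Pdk4 and Hif3a. All 10 were found among the 25050 genes of the table, and all 10 were among the 14526 genes with enough counts to be tested. The study sequenced polyadenylated RNA from 5 wildtype (Abcc5+/+) brains and 5 Abcc5-/- knockout brains, all on the FVB/NJ strain background and all from mice killed with carbon dioxide. The product of Abcc5 is a membrane pump of the ATP-binding cassette family, which exports organic anions. The labels describe whole brains. Age, sex and time of day are not given in the sources used here, and nothing says whether animals were littermates. P-values therefore weigh the difference between genotypes against the spread between these libraries.

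Glucocorticoids, corticosterone in the mouse, are released by the adrenal gland under the control of the hypothalamus and pituitary, and they rise with stress and with the daily rhythm. In brain cells they bind the mineralocorticoid receptor with high affinity and the glucocorticoid receptor with lower affinity. The hormone-bound receptors enter the nucleus and bind a palindromic DNA element near their target genes. Fkbp5, Sgk1 and Tsc22d3 are among the transcripts most often used to read out this activity. Many of the responsive genes are expressed in astrocytes, oligodendrocytes or blood vessel cells. The comparison asked whether stress hormone signalling differed in the knockout brains, in which the immediate early genes, the transcripts that neurons switch on within minutes of stimulation, were lower.

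The palindrome that the receptors bind, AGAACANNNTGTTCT, was searched for in promoter windows from RefSeq (build GRCm38.p6), each running from 250 bases before to 50 bases after an annotated transcript start. Windows of 8 of the 10 genes were searched, 15 windows in all, of which 6 belonged to Sgk1 and 3 to Tsc22d3. No window of Nr3c1 or Zbtb16 was searched. Only 1 of the 15 held the full palindrome, and among all 32851 windows of the table only 3 did (0.00913%). That window, of Sgk1, the kinase that regulates ion channels and transporters, is shown because of this match. The half-site AGAACA, read on both strands, was in 4 of the 15 windows (3 of Sgk1 and 1 of Tsc22d3) and in 19.0% of all windows. The full palindrome holds 2 of these half-sites. One window of Tsc22d3 is shown for its half-site. The window of Fkbp5 is shown because that gene is the usual readout of receptor activity and its window held neither motif. Capitals mark the motifs, and each sequence is written 5′ to 3′ on the gene's own strand. The first is chr10:21993640-21993939 (plus strand), the second chrX:140600473-140600772 (minus strand) and the third chr17:28486100-28486399 (minus strand).
Sgk1: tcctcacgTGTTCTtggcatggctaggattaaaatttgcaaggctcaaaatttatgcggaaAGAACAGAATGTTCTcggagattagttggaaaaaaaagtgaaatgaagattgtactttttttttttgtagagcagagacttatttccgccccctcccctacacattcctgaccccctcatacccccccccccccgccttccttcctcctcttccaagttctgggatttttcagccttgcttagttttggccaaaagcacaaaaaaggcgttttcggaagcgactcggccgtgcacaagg
Tsc22d3: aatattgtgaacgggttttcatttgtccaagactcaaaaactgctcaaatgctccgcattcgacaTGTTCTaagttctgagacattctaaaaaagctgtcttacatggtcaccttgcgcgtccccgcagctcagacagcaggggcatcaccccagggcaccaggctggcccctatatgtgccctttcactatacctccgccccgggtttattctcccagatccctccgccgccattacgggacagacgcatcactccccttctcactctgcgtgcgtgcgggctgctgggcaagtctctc
Fkbp5: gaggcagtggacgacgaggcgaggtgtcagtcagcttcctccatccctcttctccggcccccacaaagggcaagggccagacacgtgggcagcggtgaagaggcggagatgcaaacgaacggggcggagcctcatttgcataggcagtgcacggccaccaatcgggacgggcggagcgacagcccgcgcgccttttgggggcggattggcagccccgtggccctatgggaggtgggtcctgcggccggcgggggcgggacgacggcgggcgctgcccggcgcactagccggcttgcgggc
The Sgk1 palindrome reads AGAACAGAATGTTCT, and its first base lies 189 bases before the start. A match in a window is a description of the letters and says nothing about binding in these brains. A window without a match says only that these letters are not in those 300 bases.

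The libraries held between 7731294 and 23588335 counts. The 3 with 19795743 or more, wildtype replicate 1 with knockout replicates 2 and 4, are referred to as deeper, and the 7 with 11479995 or fewer as shallower. Levels below are in CPM (counts scaled to a common library total) and scaled by TMM, a correction for differences in RNA composition. They compare libraries for a gene and not one gene with another, since they are not divided by gene length. The Abcc5 transcript stood at 311 ± 12.6 CPM (SD, n = 5) in wildtype libraries and at 219 ± 5.95 CPM (SD, n = 5) in knockout libraries, so the log2 fold change was -0.51 (SE 0.041, edgeR adjusted p = 6.35e-06). Every knockout library was below every wildtype library, as the labels require, although the table has a single count per gene and does not show which exons the remaining reads came from. Markers of astrocytes (10 genes, led by Slc1a2, summed level 4905 to 5228 CPM in wildtype and 4983 to 5397 CPM in knockout libraries) and oligodendrocytes (10 genes, led by Mbp, 6966 to 7456 CPM and 6426 to 7779 CPM) were present in every library, and none of them passed the test. Knockout replicate 3 stood apart, with 184 CPM over 10 cerebellar granule cell markers against 1192 to 1408 CPM in the other 9 libraries. Of 10 microglial markers, C1qc and C1qb were higher in the knockout (edgeR adjusted p = 0.00437 and 0.0378), against 0.213% of all tested genes in that direction. All 10 had a positive log2 fold change, against 7490 of all 14526 tested genes. At an unadjusted p under 0.05, 6 were higher, against 979 of all tested genes. Their summed level was 237 to 259 CPM in wildtype and 275 to 330 CPM in knockout libraries, highest in knockout replicate 3. That library held the highest level of 7 of the 10, against 19.4% of all tested genes.

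None of the 10 receptor and responsive genes passed an edgeR adjusted p of 0.05 between knockout and wildtype, against 171 of all 14526 tested genes (1.18%). At an unadjusted p under 0.05, 2 of the 10 were found, Hif3a higher and Nr3c1 lower in the knockout, against 14.8% of all genes. None had groups that did not overlap, against 4.19% of all genes. The median log2 fold change of the 10 was 0.04, beside 0.0042 over all tested genes. The 95% intervals of 9 of the 10 lay between 0.773-fold and 1.31-fold, and the interval of Hif3a ran from 1.25-fold to 3.54-fold. In the authors' deposited table the adjusted p of the 10 genes ran from 0.358 to 0.974, while 0.443% of the genes with an intact value were under 0.05. A transcript level in whole brain cannot separate fewer cells of a type from less RNA per cell.

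**Figure D1:**
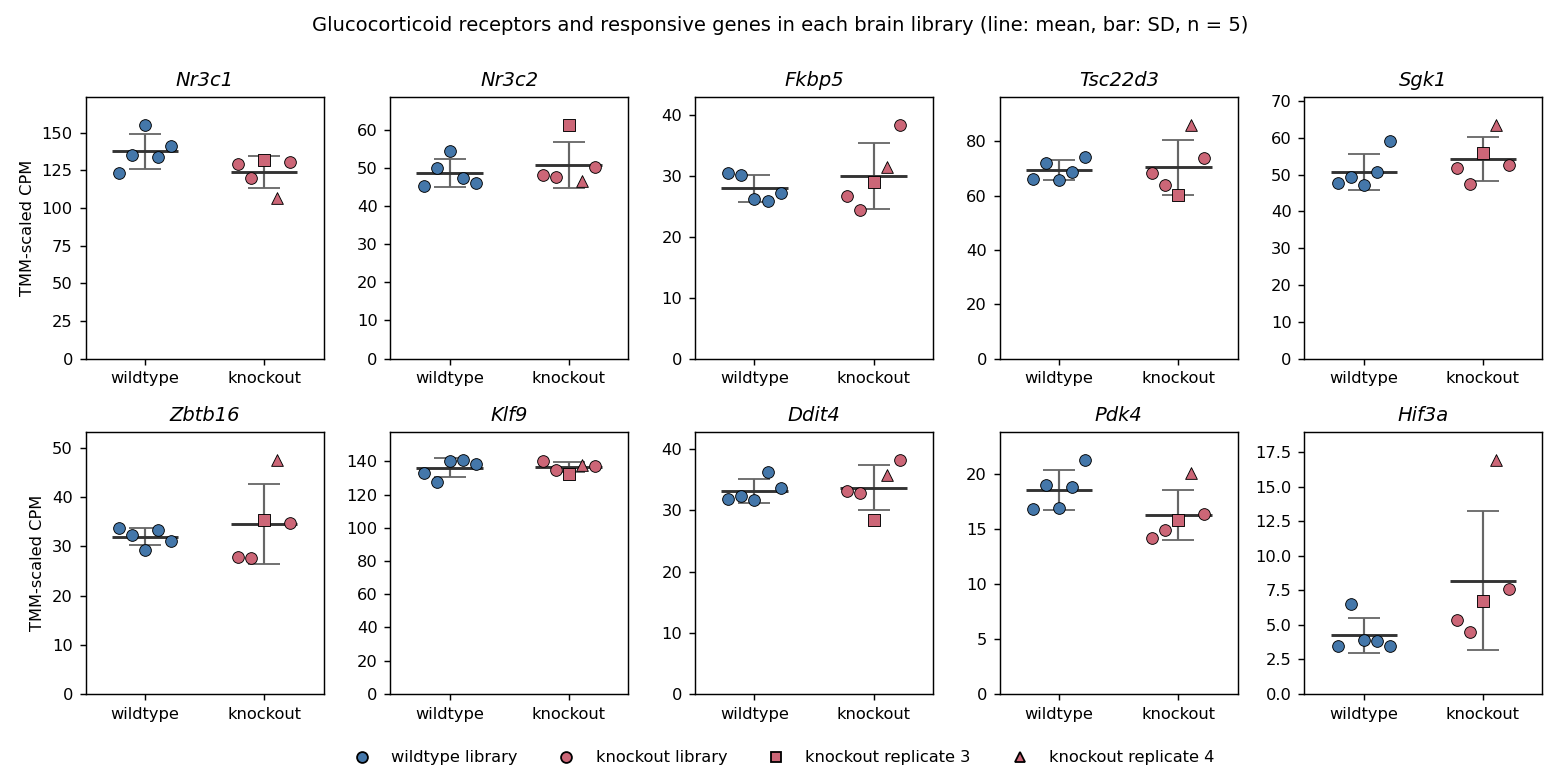
Level of each of the 10 genes in each library, in TMM-scaled CPM on axes that start at 0. Points are libraries, lines are group means and bars are the SD (n = 5 each), and the triangle is knockout replicate 4, which sits at 16.9 CPM for Hif3a and 47.5 CPM for Zbtb16, above all other libraries.

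The receptors themselves were described first. Nr3c1 (ENSMUSG00000024431, chromosome 18, from 39570199 to 39650955 by the positions that the table gives, with no build named) encodes the glucocorticoid receptor. Its level was 123, 135, 155, 133 and 141 CPM in wildtype replicates 1 to 5 and 129, 120, 132, 106 and 130 CPM in knockout replicates 1 to 5. The groups overlapped, with knockout replicates 2 and 4 below the lowest wildtype library. Nr3c1 had a log2 fold change of -0.16 (SE 0.068, unadjusted p = 0.0338, edgeR adjusted p = 0.293). Nr3c1 was the only one of the 10 genes whose lowest level was in knockout replicate 4, at 0.832 times the mean of the other knockout libraries. Without that library the log2 fold change was -0.11.

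Nr3c2 (ENSMUSG00000031618, chromosome 8, 79423341 to 79768911) encodes the mineralocorticoid receptor, which is known for its strong expression in the hippocampus. Its level was 45.4, 50.1, 54.4, 47.5 and 46.1 CPM in wildtype and 48.1, 47.6, 61.3, 46.6 and 50.2 CPM in knockout libraries. Knockout replicate 3 was the highest of the 10 libraries and the other 4 knockout libraries lay within the wildtype range. The log2 fold change was 0.05 (SE 0.075, edgeR adjusted p = 0.797). It was -0.01 without knockout replicate 3, the library that almost lacked cerebellar markers. Summed over 9 tested hippocampal markers that library had 486 CPM, within the 422 to 510 CPM of the others. The part of its tissue content in the Nr3c2 value was not tested.

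Among the genes used as readouts of receptor activity, Fkbp5 (ENSMUSG00000024222, chromosome 17, 28536040 to 28654469) encodes an Hsp90 co-chaperone that lowers the hormone affinity of the receptor and so closes a feedback loop. Fkbp5 was at 30.4, 30.1, 26.2, 25.8 and 27.1 CPM in wildtype and at 26.6, 24.3, 28.9, 31.4 and 38.3 CPM in knockout libraries. The knockout libraries spread on both sides of the wildtype range, from replicate 2 below it to replicates 4 and 5 above it. Fkbp5 had a log2 fold change of 0.08 (SE 0.10, edgeR adjusted p = 0.771), and it was -0.01 without knockout replicate 5.

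Tsc22d3 (ENSMUSG00000031431, chromosome X, 137074067 to 137135198) encodes the glucocorticoid-induced leucine zipper, which mediates anti-inflammatory effects of the hormone. It was at 66.1, 71.9, 65.5, 68.8 and 74.1 CPM in wildtype and at 68.2, 64.0, 60.0, 86.1 and 73.9 CPM in knockout libraries. Only knockout replicate 4 was above the highest wildtype library, and replicates 2 and 3 were below the lowest. The log2 fold change was 0.03 (SE 0.081, edgeR adjusted p = 0.897), and it was -0.06 without replicate 4.

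Sgk1 (ENSMUSG00000019970, chromosome 10, 21601990 to 21719709), whose window with the palindrome is printed above, was at 47.6, 49.2, 47.1, 50.6 and 59.0 CPM in wildtype and at 51.9, 47.5, 55.8, 63.5 and 52.5 CPM in knockout libraries. All knockout libraries but replicate 4 lay within the wildtype range. Sgk1 had a log2 fold change of 0.10 (SE 0.080, edgeR adjusted p = 0.576). For none of the 3 readout genes, of which only Sgk1 had a window with the palindrome, was the difference between genotypes larger than the spread between libraries.

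Of the responsive genes, 2 encode zinc finger transcription factors. Zbtb16 (ENSMUSG00000066687, chromosome 9, 48462416 to 48644050) encodes a repressor that is strongly induced by glucocorticoids in many tissues. Its level was 33.7, 32.4, 29.3, 33.4 and 31.2 CPM in wildtype and 27.8, 27.6, 35.4, 47.5 and 34.8 CPM in knockout libraries. The wildtype libraries lay close together, whereas knockout replicates 1 and 2 were below all of them and replicates 3, 4 and 5 above all of them. The log2 fold change was 0.12 (SE 0.13, edgeR adjusted p = 0.697), and it was -0.05 without replicate 4. Klf9 (ENSMUSG00000033863, chromosome 19, 23215716 to 23241401), a Krüppel-like factor induced by glucocorticoid and thyroid hormone, was at 127 to 141 CPM in the wildtype libraries, with a median of 138 CPM. In the knockout libraries it was at 132 to 140 CPM, with a median of 137 CPM. Its log2 fold change was 0.0047 (SE 0.042, edgeR adjusted p = 0.978), with a 95% interval of 0.944-fold to 1.07-fold, and every knockout library lay within the wildtype range.

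The metabolic and hypoxia-linked genes were Ddit4, Pdk4 and Hif3a. Ddit4 (ENSMUSG00000020108, chromosome 10, 59412423 to 59414518) encodes an inhibitor of the mTORC1 growth pathway that both glucocorticoids and low oxygen induce. It was at 31.9, 32.3, 31.7, 36.3 and 33.6 CPM in wildtype and at 33.2, 32.8, 28.5, 35.8 and 38.2 CPM in knockout libraries. Ddit4 had a log2 fold change of 0.03 (SE 0.072, edgeR adjusted p = 0.897), and 3 of 5 knockout libraries lay within the wildtype range. Pdk4 (ENSMUSG00000019577, chromosome 6, 5433351 to 5446309) encodes a kinase that shuts off pyruvate dehydrogenase and so spares glucose. It was at 16.8, 18.9, 16.9, 18.8 and 21.2 CPM in wildtype and at 14.1, 14.9, 15.8, 20.1 and 16.4 CPM in knockout libraries. All knockout libraries but replicate 4 were below the lowest wildtype library. The log2 fold change was -0.16 (SE 0.10, unadjusted p = 0.129, edgeR adjusted p = 0.478), and it was -0.28 without replicate 4 (edgeR adjusted p = 0.191).

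Hif3a (ENSMUSG00000004328, chromosome 7, 17616856 to 17647776) encodes a member of the hypoxia-inducible factor family that is also induced by glucocorticoids, and it had the largest difference of the 10. It was at 3.47, 6.51, 3.87, 3.84 and 3.50 CPM in wildtype and at 5.33, 4.46, 6.73, 16.9 and 7.57 CPM in knockout libraries, from 30 to 400 counts per library. Knockout replicates 3, 4 and 5 were above the highest wildtype library, replicate 4 by more than the others. Hif3a had a log2 fold change of 1.08 (SE 0.35, unadjusted p = 0.00795, edgeR adjusted p = 0.165). Without knockout replicate 4 it was 0.46 (edgeR adjusted p = 0.378). Among the deeper libraries, 1 wildtype and 2 knockout, the log2 difference was 1.29, and among the shallower libraries it was 0.58. Knockout replicate 4 was 1 of the 2 deeper knockout libraries. The other, replicate 2, was at 4.46 CPM, against 3.47 CPM in wildtype replicate 1. Under the 22 alternative settings that were run, the lowest adjusted p of Hif3a was 0.0591, with no filter on low counts.

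**Figure D2:**
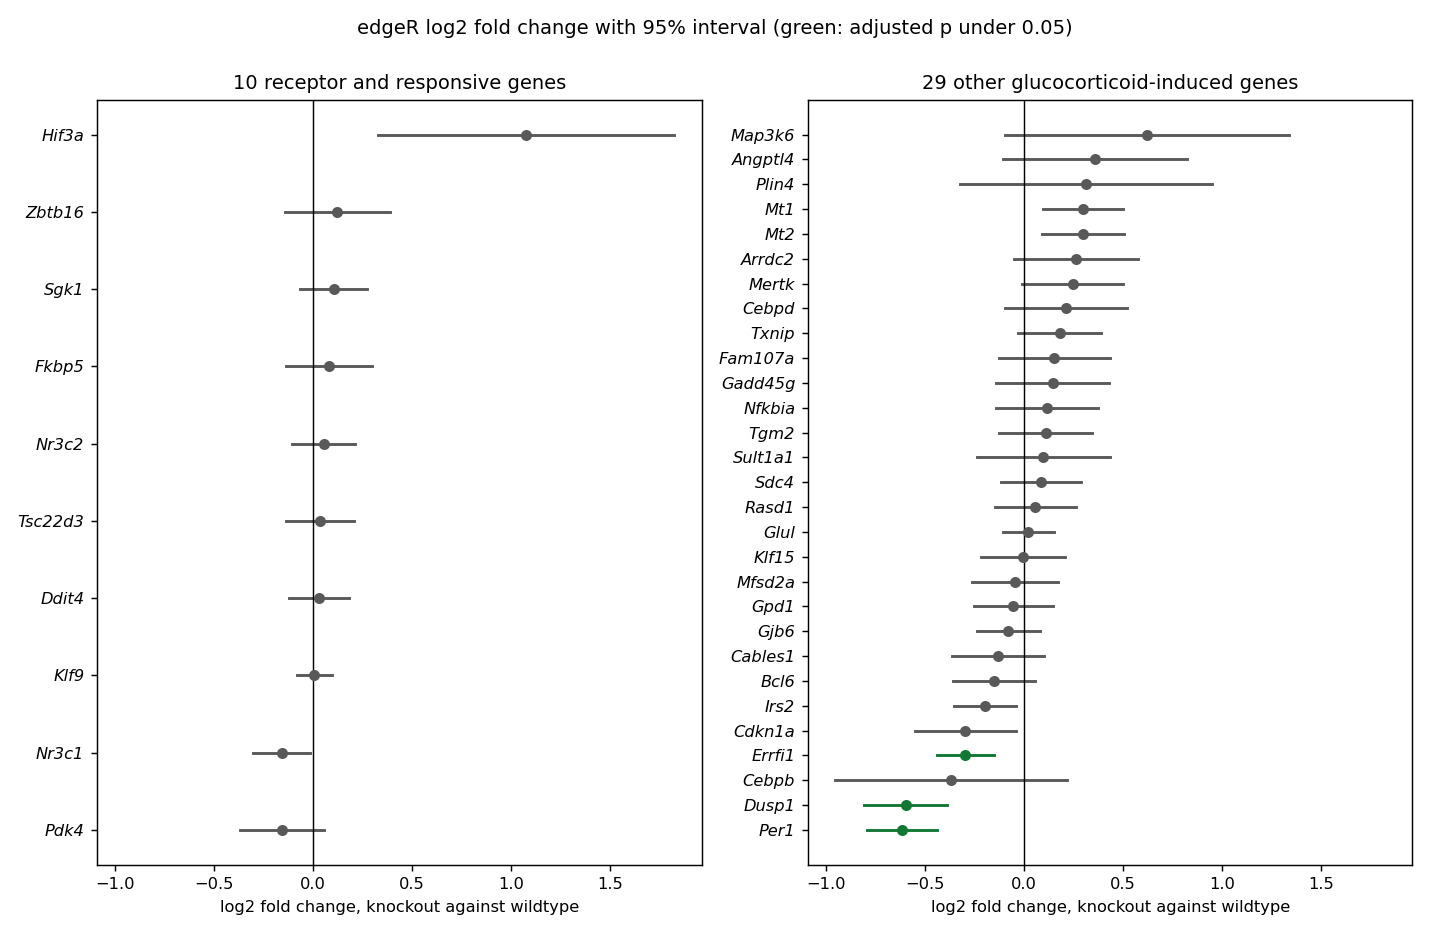
edgeR log2 fold change of knockout against wildtype (points) with its 95% interval (lines) for the 10 genes (left) and for 29 other glucocorticoid-induced genes (right). Green marks an adjusted p under 0.05, reached by none of the 10 and by Per1, Dusp1 and Errfi1 among the 29.

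Other genes known to be induced by glucocorticoids were taken from a list of 30, of which 29 were tested and Lcn2 was not. Of the 29, 3 fell in the knockout (10.3%, against 0.964% of all tested genes in that direction) and none rose. The median log2 fold change of the list was 0.08. Per1, a gene of the circadian clock, fell from 134 ± 9.47 to 87.2 ± 12.2 CPM (SD, n = 5 each), a log2 fold change of -0.62 with an edgeR adjusted p of 0.00128. Dusp1, a phosphatase that switches off MAP kinases, fell from 46.7 ± 6.21 to 31.2 ± 4.37 CPM, a log2 fold change of -0.60 with an edgeR adjusted p of 0.00561. Both are also immediate early genes and stand in that list too, as does Rasd1, which did not pass the test. Dusp1 did not pass with the 7 shallower libraries alone (edgeR adjusted p = 0.144).

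Errfi1, a feedback inhibitor of the epidermal growth factor receptor, fell from 36.8 ± 3.23 to 29.8 ± 2.09 CPM, a log2 fold change of -0.30 with an edgeR adjusted p of 0.0452. It lost its call under 12 of 22 alternative settings, where the highest adjusted p was 0.242. Of the members that did not pass, the metallothioneins Mt1 and Mt2, small metal-binding proteins, had log2 fold changes of 0.30 each, with edgeR adjusted p of 0.156 and 0.165. Mt1 was at 121, 114, 103, 100.5 and 110 CPM in wildtype and at 114, 139, 109, 166 and 144 CPM in knockout libraries, of which replicates 2, 4 and 5 were above all wildtype libraries. Without knockout replicate 3 both passed, with edgeR adjusted p of 0.0179 for Mt1 and 0.0432 for Mt2, and the list then held 5 called genes. Of 22 alternative settings, Mt1 stayed uncalled under 20 and Mt2 under 21, with adjusted p up to 0.39976 and 0.37768. These paralogs are similar in sequence, and how reads shared between them were counted is not given in the sources used here.

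Within the knockout group one library stood apart in the responsive genes. Knockout replicate 4 held the highest level of 4 of the 10 genes, Hif3a, Zbtb16, Tsc22d3 and Sgk1, and the second highest of Fkbp5 and Pdk4. Against the mean of the other 4 knockout libraries, Hif3a was 2.81 times as high in it, Zbtb16 1.51 times, Pdk4 1.31 times, Tsc22d3 1.29 times and Sgk1 1.22 times, while Fkbp5 was 1.06 times and Klf9 1.02 times as high. Of the 29 other glucocorticoid-induced genes, 18 had their highest level in the same library. The same was true of 10.7% of all tested genes. The library was singled out after its values were seen, so these counts describe it and were not tested.

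The largest of these were Plin4, a lipid droplet protein, at 9.91 CPM against 3.10 to 7.32 CPM in the other 9 libraries, and Map3k6, a stress-activated kinase, at 2.54 CPM against 0.654 to 1.47 CPM. Arrdc2, an arrestin-domain protein, was at 10.0 CPM against 5.50 to 8.34 CPM. Mertk, a receptor for engulfment of debris, was at 42.3 CPM against 24.0 to 34.0 CPM. Mt1 was at 166 CPM against 100.5 to 144 CPM, and Klf15, a Krüppel-like factor of nutrient metabolism, was at 23.4 CPM against 16.6 to 22.3 CPM. Set against the mean of the other knockout libraries, 26 of the 29 were higher in replicate 4, with a median log2 difference of 0.32. The same median was 0.21 for the 10 genes, 0.0070 for all tested genes and -0.10 for 39 immediate early genes. Among cell type markers it was 0.24 for astrocytes, 0.13 for oligodendrocytes, 0.22 for blood and 0.72 for cerebellar granule cells. For every median given here, the mean of the other knockout libraries includes knockout replicate 3, which almost lacked the granule cell markers. Knockout replicate 3 also held the lowest level of 10 of the 29 genes. The median was -0.05 for endothelial, -0.07 for microglial, -0.08 for choroid plexus and -0.04 for hippocampal markers.

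**Figure D3:**
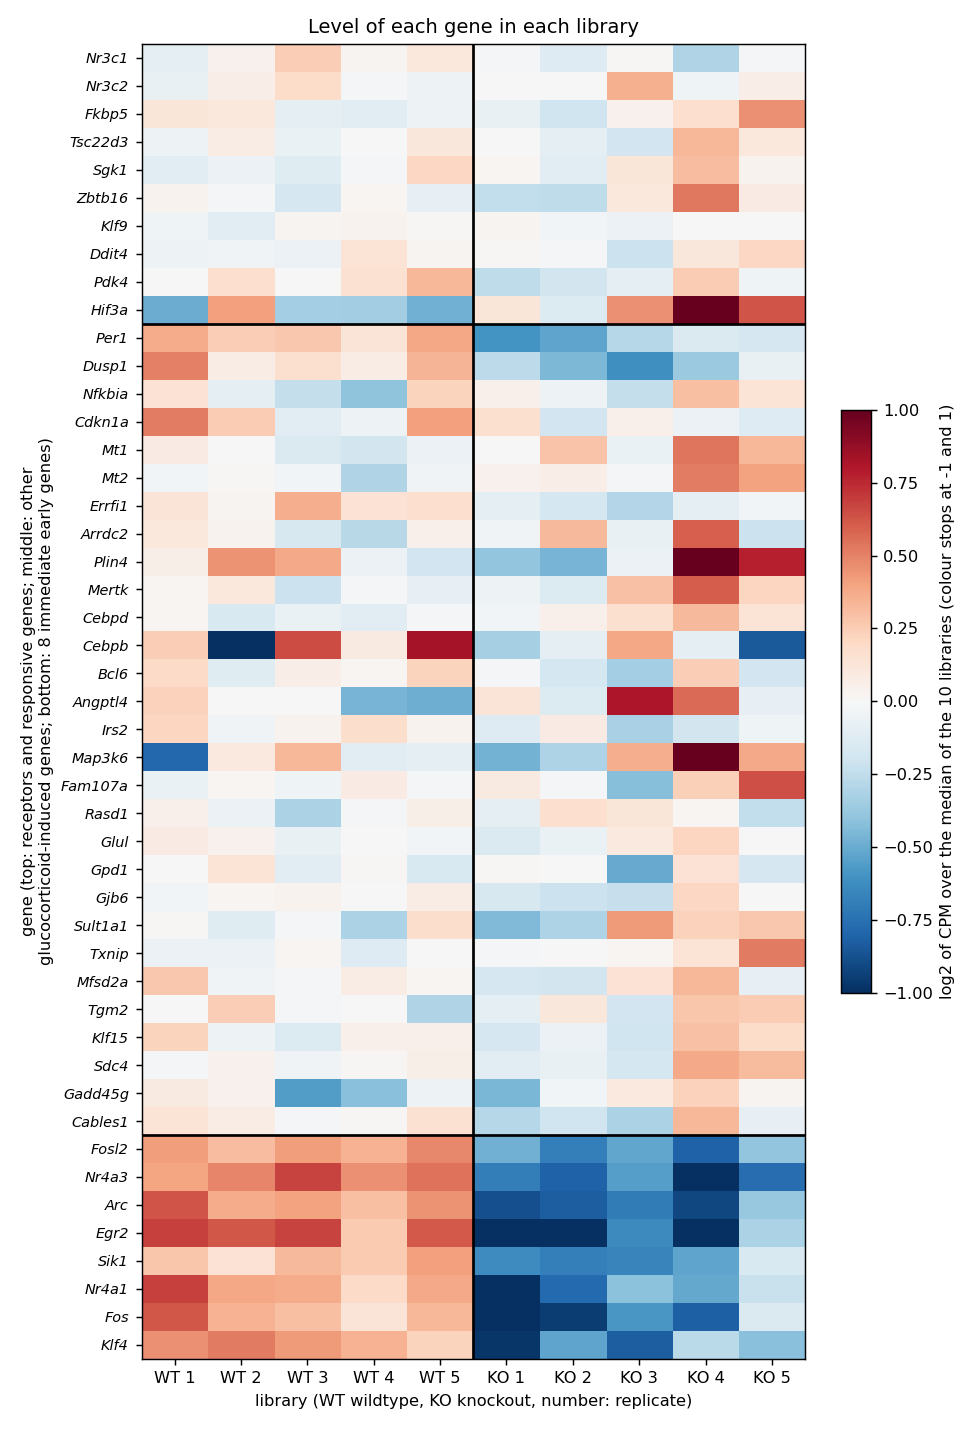
Log2 of each gene's CPM over its median of the 10 libraries, for the 10 genes (top), 29 other glucocorticoid-induced genes (middle) and the 8 immediate early genes with the smallest p (bottom). The column of knockout replicate 4 is red over most of the upper 2 blocks, as for Plin4 at 9.91 CPM, while the immediate early genes are blue in the knockout libraries.

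Other measures moved with this library. It was the deepest, with 23588335 counts. Knockout replicate 2, with 22090371, held the highest level of none of the 10 genes and of 1 of the 29. The summed astrocyte markers of knockout replicate 4 (5397 CPM, against 4905 to 5379 CPM in the other 9 libraries) were the highest of the 10 libraries. So were its oligodendrocyte markers (7779 CPM, against 6426 to 7618 CPM). The 5379 CPM of astrocyte markers was in knockout replicate 3. That library held the highest level of 2 and the lowest level of 10 of the 29 genes. Of all tested genes, it held the highest level of 19.4% and the lowest level of 19.2%. Knockout replicate 4 held the highest level of 5 of 10 astrocyte markers and 4 of 10 oligodendrocyte markers. Its endothelial markers (295 CPM) were within the 288 to 334 CPM of the others, and so were its microglial (278 CPM), choroid plexus (622 CPM) and blood markers (91.8 CPM). The part of depth and of astrocyte and oligodendrocyte content in its high glucocorticoid-responsive genes was not tested.

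**Figure D4:**
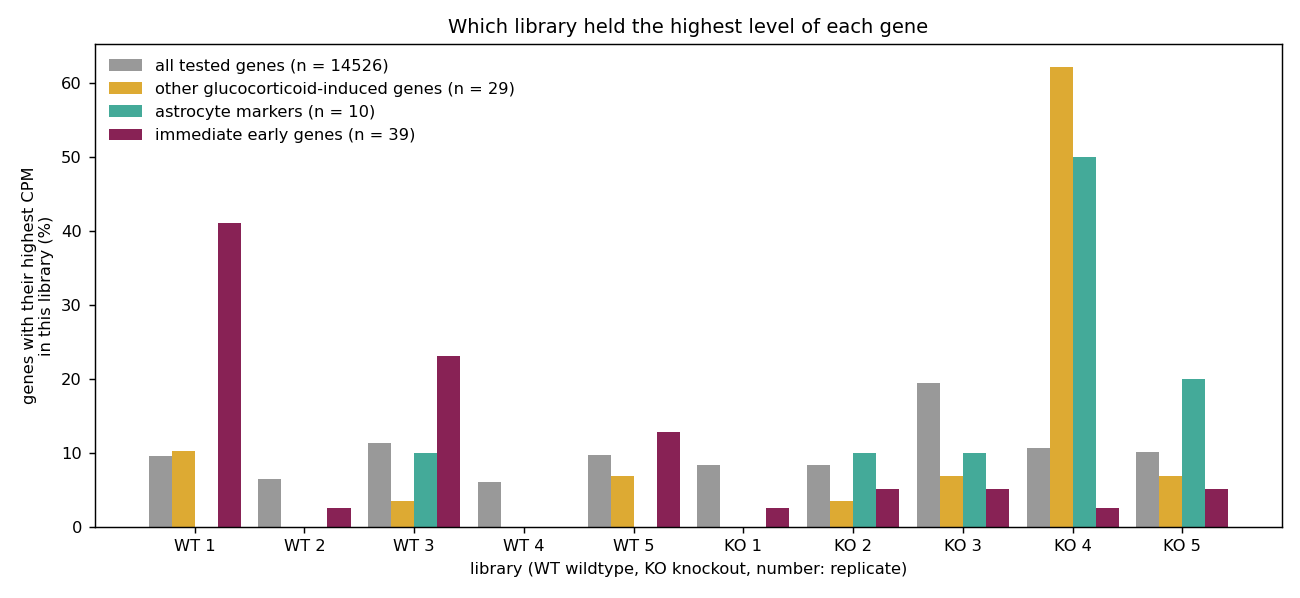
Share of genes, in percent, whose highest CPM of the 10 libraries was in each library, for all tested genes and 3 gene lists. Knockout replicate 4 holds 62.1% of the 29 other glucocorticoid-induced genes and 5 of the 10 astrocyte markers, against 10.7% of all tested genes.

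Whether the responsive genes followed the immediate early genes was examined in each library. Of 39 tested immediate early genes, 18 fell in the knockout (46.2%, against 0.964% of all tested genes in that direction) and none rose, with a median log2 fold change of -0.54. The 8 with the smallest p were Fosl2, Nr4a3, Arc, Egr2, Sik1, Nr4a1, Fos and Klf4, whose log2 fold changes ran from -1.57 for Egr2 to -0.82 for Sik1. Over the 39 genes, the mean log2 CPM was 4.47 to 4.68 in the wildtype and 3.89 to 4.22 in the knockout libraries, with no overlap. The 10 receptor and responsive genes showed no such separation. Knockout replicates 1 and 4 had the lowest means (3.89 and 3.95 log2 CPM), and between them the responsive genes differed: replicate 4 held the highest level of 18 of the 29 glucocorticoid-induced genes and replicate 1 of none. Fkbp5 was at 26.6 CPM in replicate 1 and 31.4 CPM in replicate 4, and Hif3a at 5.33 and 16.9 CPM.

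After each library's deviation from its own group mean was taken, the correlation of a gene with the immediate early gene mean across the 10 libraries ran from -0.26 (Klf9) to 0.59 (Fkbp5). For Fkbp5, Pearson's r was 0.59 (permutation p = 0.145) and Spearman's rho was 0.61 (permutation p = 0.102), two-sided. Without knockout replicates 1 and 5, the 2 libraries farthest from the median, r was 0.14, so the value rested on those libraries. None of the 10 relations passed adjustment (lowest adjusted p = 0.910 for Pearson and 0.797 for Spearman). Among the 10 genes themselves, 45 pairs were examined and none passed adjustment. By Pearson's r the closest pair was Sgk1 and Pdk4, with r = 0.89 (permutation p = 0.0038, adjusted p = 0.171) and rho = 0.79 (permutation p = 0.0167, adjusted p = 0.322), and r = 0.56 without knockout replicate 4 and wildtype replicate 5. By Spearman's rho it was the receptors Nr3c1 and Nr3c2, with rho = 0.82 (permutation p = 0.00879, adjusted p = 0.322) and r = 0.67 (permutation p = 0.0618, adjusted p = 0.318), and r = 0.51 without knockout replicate 4 and wildtype replicate 3.

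**Figure D5:**
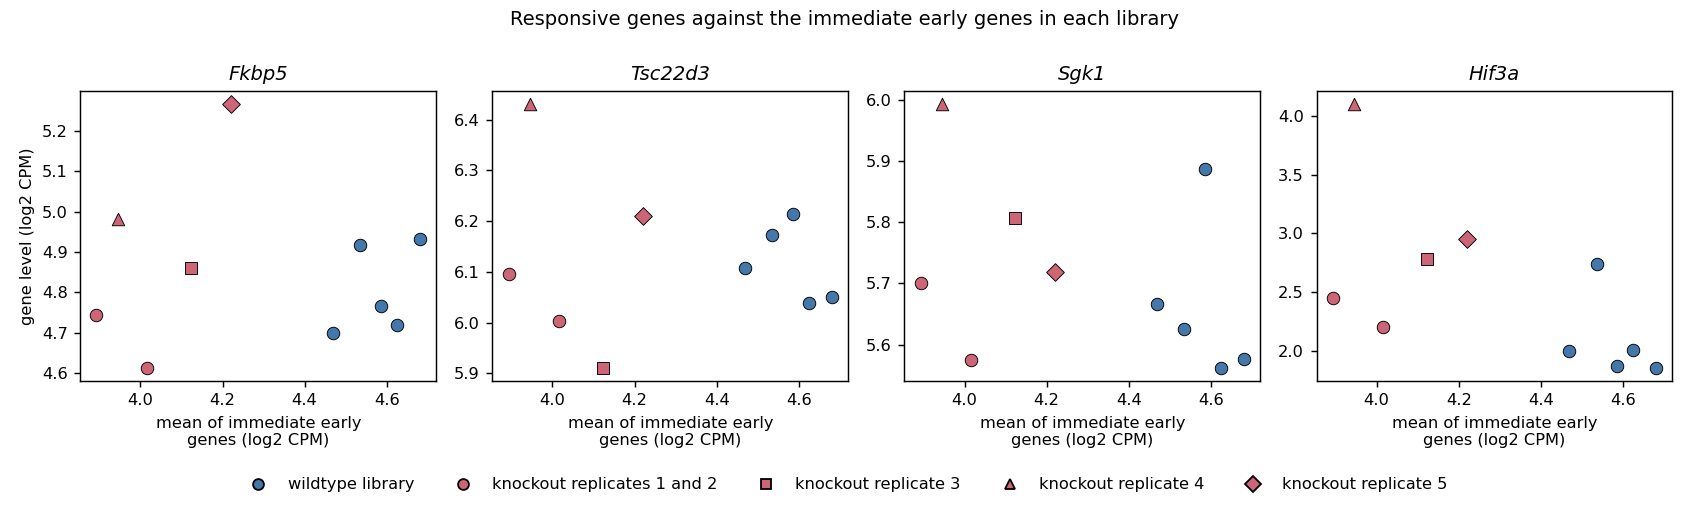
Level of Fkbp5, Tsc22d3, Sgk1 and Hif3a (y axis, log2 CPM) against the mean of 39 immediate early genes (x axis, log2 CPM), with a point for each library. The knockout libraries lie at 3.89 to 4.22 and the wildtype libraries at 4.47 to 4.68 on the x axis, while the groups overlap on the y axis of each panel.

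For the 3 readout genes, the genes with the most similar deviations from the group means were named out of 10292 genes with a mean of at least 10 CPM. Over the 10 libraries Fkbp5 was most like Ip6k2 (r = 0.95), Pabpn1 (r = 0.94) and Eomes (r = 0.92). Sgk1 was most like Rnpc3 (r = 0.91), Pdk4 (r = 0.89) and Cstf2 (r = 0.87). Tsc22d3 was most like Nsmaf (r = 0.95), Gjb6, a gap junction protein of astrocytes (r = 0.94), and Cyth1 (r = 0.91). These are the highest of many values over 10 points that share library and depth, and are given as a description. Pdk4 is one of the 10 genes and Gjb6 one of the 29.

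Proteins that hold the receptors in a hormone-binding state or act with them on DNA formed a list of 19, all tested, of which 1 fell (5.26%, against 0.964% of all tested genes in that direction) and none rose. Their median log2 fold change was -0.05, and 14 of the 19 had a negative value, against 7036 of all 14526 tested genes. At an unadjusted p under 0.05, 6 of the 19 were lower and 0 higher, against 1166 lower and 979 higher of all tested genes. Hspa8, the constitutive Hsp70 chaperone, fell from 459 ± 22.9 to 395 ± 18.5 CPM, a log2 fold change of -0.22 with an edgeR adjusted p of 0.0338. It lost its call under 9 of 22 alternative settings, among them the omission of wildtype replicate 3, 4 or 5 and that of knockout replicate 1, 2 or 4, with adjusted p up to 0.207. The gene has many processed pseudogenes, and how reads shared with them were counted is not given in the sources used here. Next by p was Ncoa3, a coactivator of nuclear receptors, at 67.0 ± 2.64 CPM in wildtype and 59.0 ± 1.92 CPM in knockout libraries (edgeR adjusted p = 0.0587).

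Enzymes and pumps that make, inactivate or export the hormone formed a list of 10. Of these, 7 were tested and none passed an edgeR adjusted p of 0.05 or an unadjusted p under 0.05. Their median log2 fold change was -0.03. The smallest p was that of Akr1c14, a hydroxysteroid dehydrogenase, at 3.28 ± 0.645 CPM in wildtype and 4.06 ± 0.522 CPM in knockout libraries (edgeR adjusted p = 0.429). Next was Abcb1a, an efflux pump of the blood-brain barrier, at 37.9 ± 1.41 CPM in wildtype and 40.4 ± 2.51 CPM in knockout libraries (edgeR adjusted p = 0.502). Hsd11b2 and Cyp11b1 had too few counts to be tested, and Serpina6 was not analysed here. Of other steroid hormone receptors, 3 of 4 were tested and none passed at either threshold. Esr1, an estrogen receptor, was at 3.82 ± 0.614 CPM in wildtype and 4.59 ± 1.39 CPM in knockout libraries (edgeR adjusted p = 0.606), and Pgr, the progesterone receptor, at 16.2 ± 1.76 and 17.9 ± 2.82 CPM (edgeR adjusted p = 0.606).

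Of the peptides and receptors of the stress axis, 8 of 12 were tested, and 1 rose and none fell (12.5%, against 0.213% of all tested genes in that direction). This was Avp, vasopressin, a hypothalamic peptide that acts with Crh on the pituitary and also regulates water balance. Avp was at 7.10, 5.31, 5.03, 5.15 and 5.60 CPM in wildtype and at 9.03, 7.70, 8.97, 8.64 and 8.91 CPM in knockout libraries. Every knockout library was above every wildtype library, as in 1.54% of all tested genes. The log2 fold change was 0.56 (SE 0.11, edgeR adjusted p = 0.0233). The call was lost without wildtype replicate 2, 3, 4 or 5 or without knockout replicate 1 or 4, where the adjusted p was 0.0528 to 0.0799. Among the deeper libraries, 1 wildtype and 2 knockout, the log2 difference was 0.20, and among the shallower libraries it was 0.75. With 39 to 204 counts per library, Avp rests on few reads.

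Oxt, the related peptide oxytocin, was at 2.97 to 4.08 CPM in wildtype and 4.01 to 5.67 CPM in knockout libraries, a log2 fold change of 0.43 with an edgeR adjusted p of 0.129. Crh, corticotropin-releasing hormone, was at 4.37 ± 0.944 CPM in wildtype and 4.12 ± 0.470 CPM in knockout libraries, with an edgeR adjusted p of 0.996. Its receptor Crhr1 was at 34.8 to 38.3 CPM in wildtype and 21.8 to 33.9 CPM in knockout libraries, with a log2 fold change of -0.26 and an edgeR adjusted p of 0.188. Every knockout library was below every wildtype library for Crhr1. Groups did not overlap, in either direction, for 4.19% of all tested genes. The lowest Crhr1 level was in knockout replicate 3, the library with few cerebellar granule cell transcripts. The other knockout libraries were at 30.2 to 33.9 CPM. The part of tissue content in the Crhr1 levels was not tested.

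Since Hif3a, Ddit4 and Pdk4 also respond to low oxygen, 15 tested hypoxia-responsive genes were set beside them. Of these 3 fell, against 0.964% of all tested genes in that direction, and none rose, and the median log2 fold change was -0.03. P4ha1, a collagen prolyl hydroxylase subunit, fell from 64.1 ± 1.93 to 44.8 ± 4.92 CPM, a log2 fold change of -0.53 with an edgeR adjusted p of 4.26e-04. Pfkfb3, a regulator of glycolysis, fell by 0.31 on the log2 scale (edgeR adjusted p = 0.0156), and Vegfa, the main growth factor of blood vessels, fell by 0.22 (edgeR adjusted p = 0.0338). Pfkfb3 lost its call under 4 and Vegfa under 8 of 22 alternative settings, with adjusted p up to 0.0561 and 0.106. Members of the list that passed the test went down, whereas Hif3a had a positive log2 fold change that did not pass.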

How the data were processed

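RNA from 10 brains was sequenced and the authors deposited raw read counts per Ensembl gene and library. Per the submitters' processing notes the tools were TopHat2 2.0.6, HTSeq, edgeR and limma, whose settings, like the genome build, are not given in the sources used here. The deposited table also holds the authors' log2 fold change and adjusted p-value per gene. Damaged numbers stood in 629 cells of the former and 8 of the latter and were left out. Another 10 per-library columns were not used here.

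The counts were filtered with filterByExpr of edgeR 4.0.16 under R 4.3.3 (at least 10 counts, 15 in total) and scaled by TMM. The quasi-likelihood test compared the genotypes over all 10 libraries with no other term, and Benjamini-Hochberg adjustment ran over the 14526 tested genes. Each SE was taken from the F statistic. Levels are TMM-scaled CPM; a prior count of 2 was added for log2 CPM. Replicates differed by more than counting error (chi-square 1.29 to 12.8 per degree of freedom), so no pair was counted as 1 sample. Correlations used deviations from group means and 100000 seeded permutations of libraries within the groups. Both methods were tested on simulated data.

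Alternatives were leaving out each library, the 7 libraries under 15000000 counts, a replicate block, depth class as a term, upper-quartile scaling, size factors and the Wald test of DESeq2 1.42.0, limma-voom (limma 3.58.1) without and with sample weights, a filter at 1 CPM in 5 libraries or none, a threshold of 0.1 and, chosen after seeing the data, leaving out knockout replicates 3 and 4 together. For the correlations they were DESeq2 size factors, a prior count of 0.5, no centring on groups, and leaving out libraries.

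The 10 genes and all gene lists were chosen with earlier results of these data known. Named genes are the 10, the called members of each list (at most 8), the 2 members with the smallest p where fewer than 2 were called, the 3 genes most like Fkbp5, Sgk1 and Tsc22d3, and Abcc5. Genes named for knockout replicate 4, and Mt1, Mt2, Crh and Crhr1, were added after their values were seen. Promoter windows came from RefSeq, build GRCm38.p6. Table positions are of another, unnamed build.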

Additional observations from a re-analysis of the deposited data

Results flagged for a closer look

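In groups of 5 libraries, a library was picked out when its gap to the nearest other library took up more than 0.71 of the group's range (Dixon's rule), which chance does for about 1 in 20 groups. Among the 20 groups of the 10 receptor and responsive genes this happened in 3, and among 234 groups of the other pathway genes in 16. Hif3a was at 16.9 CPM in knockout replicate 4, against 4.46 to 7.57 CPM in the other knockout libraries. It was also at 6.51 CPM in wildtype replicate 2, against 3.47 to 3.87 CPM in the other wildtype libraries, which differed by little. Nr3c2 was at 61.3 CPM in knockout replicate 3, against 46.6 to 50.2 CPM in the other knockout libraries. That library is the one that almost lacked cerebellar granule cell markers, and knockout replicate 4 is the deepest library and the one with the highest level of 18 of 29 other glucocorticoid-induced genes. The part of these measures in the flagged values was not tested.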

How the results depend on the processing

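None of the 10 genes was called under any of the 22 alternatives run, and the lowest adjusted p was 0.0591 (Hif3a with no low-count filter). Of 220 combinations of gene and alternative, 15 reversed the sign of a fold change that was not called. Leaving out a library, the log2 fold change ranged from -0.019 to 0.017 for Klf9, -0.014 to 0.090 for Nr3c2, -0.014 to 0.16 for Fkbp5, -0.060 to 0.085 for Tsc22d3, -0.052 to 0.21 for Zbtb16 and -0.013 to 0.076 for Ddit4. With the 7 shallower libraries it was -0.057 for Tsc22d3, -0.0026 for Klf9 and -0.0082 for Ddit4. Without knockout replicates 3 and 4 it was -0.021 for Tsc22d3, -0.0074 for Sgk1 and -0.12 for Zbtb16.

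Counts of called genes moved with the processing. All genes gave 171 calls, and 76 (without wildtype replicate 4) to 341 (without knockout replicate 3) with a library left out, 261 by the Wald test of DESeq2, 563 by limma-voom with sample weights, 31 in the shallower libraries and 373 at a threshold of 0.1. The replicate numbers showed no pairing by correlation (same-number correlation -0.14 to 0.09, with 1 of 5 wildtype libraries closest to its own number). This check cannot exclude a pairing of the animals. The replicate block gave 90 calls for all genes and 0 for chaperones and coregulators. With a library left out the calls were 2 to 5 for other glucocorticoid-induced genes, 0 to 2 for chaperones and coregulators, 0 to 1 for the stress axis and 1 to 3 for hypoxia-responsive genes. The shallower libraries gave 1, 0 and 1 calls for the glucocorticoid-induced, chaperone and hypoxia lists and 9 for the immediate early genes, with fewer samples. Chaperones and coregulators had 2 calls by DESeq2, 3 by limma-voom with sample weights, 2 with a depth term and 2 at a threshold of 0.1. Without knockout replicates 3 and 4 they had 0 and the stress axis 0. The cause of these shifts in the counts was not tested.

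Correlations with the immediate early gene mean changed sign under at least 1 of 14 alternatives for all genes but Nr3c1 and Klf9. Over both groups without centring, r was -0.086 for Nr3c2, -0.029 for Fkbp5, -0.17 for Zbtb16 and 0.47 for Pdk4. Without the 2 farthest libraries it was -0.32 for Zbtb16. With a library left out it ranged from -0.53 to 0.0042 for Tsc22d3, -0.32 to 0.047 for Sgk1, -0.28 to 0.60 for Zbtb16, -0.81 to 0.16 for Ddit4, -0.48 to 0.18 for Pdk4 and -0.39 to 0.23 for Hif3a. Low counts limit Hif3a (30 counts in its lowest library) and Avp (39).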
